A study of Mus musculus with 15 samples.

Results

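Mouse embryonic stem (ES) cells kept with 2 kinase inhibitors and the cytokine LIF were compared with cells of the same line that had kept the GSK3 inhibitor CHIR99021 alone for 24 h. The comparison rests on 6 of the 15 arrays of the series, chosen by their titles: 3 of the 2iLIF group and 3 of the CHIR group. All 19937 genes with a probe set of exactly 1 gene symbol were tested. The line carried a knock-in of a biotin and 3xFLAG tag at Ctnnb1 (beta-catenin) and expressed the biotin ligase BirA. It was a single knock-in line adapted to 2i medium, and all 5 groups shared these alleles. The 2iLIF cells were in long-term culture with CHIR99021 (3 µM), the MEK inhibitor PD0325901 (1 µM) and LIF. The CHIR cells had CHIR99021 at the same 3 µM, with PD0325901 and LIF taken away 24 h before RNA extraction. The group called 2i kept both inhibitors at these doses and lost LIF alone for 24 h. The PD03 group kept PD0325901 (1 µM) alone and the DMSO group kept no factor, both after 24 h of withdrawal (n = 3 arrays in each group).

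LIF binds a receptor made of Lifr and Il6st (gp130), which activates the JAK kinases and the transcription factor STAT3. STAT3 induces its own inhibitor Socs3 and several factors of the naive ES cell state, among them Klf4 and Tfcp2l1. FGF signals through RAS, RAF, MEK and ERK, and ERK induces phosphatases and Sprouty proteins that dampen the same cascade. In ES cells ERK activity favours exit from the naive state towards the formative epiblast, which is marked by Otx2, Fgf5 and the de novo DNA methyltransferases. GSK3 inhibition stabilises beta-catenin and relieves repression by Tcf7l1 at naive genes.

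Values are log2 RMA signals, in which a difference of 1 is a 2-fold difference. A positive difference means that a gene was higher in 2iLIF than in CHIR. A gene passed when its limma p, adjusted by Benjamini-Hochberg over all 19937 genes, was under 0.05. Errors of a difference are standard errors (SE) from that fit. The total difference was set beside the steps that add up to it. The LIF step was 2iLIF minus 2i, measured with both inhibitors present, and the PD0325901 step was 2i minus CHIR, measured without LIF. The steps share the 2i arrays, and the series has no group with CHIR99021 and LIF alone.

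In 2iLIF minus CHIR 4599 genes passed, which is 23.1% of those tested. Of these, 2137 were higher (10.7% of all genes) and 2462 were lower (12.3%). Most differences were small: the median absolute difference of the genes that passed was 0.25, and 167 genes (0.838%) passed with a difference of at least 2-fold, 98 higher and 69 lower. The LIF step alone had 2437 calls (12.2% of genes), 910 higher (4.56%) and 1527 lower (7.66%), and the PD0325901 step had 1887 (9.46%), 1137 higher (5.7%) and 750 lower (3.76%). When each array was centred on its median the split of the LIF step became 1162 higher and 983 lower, and that of the PD0325901 step 716 higher and 932 lower, so the balance of directions within a step depends on the scaling. The split of the total moved little, to 2014 higher and 2234 lower. Replicate arrays correlated with r between 0.9964 and 0.9984 in every group, and array medians lay between 6.98 and 7.06. Whether replicates were grown as separate cultures is not stated in the labels. The p-values then measure only the spread between these arrays, which may be technical. RNA came from whole cultures, so a smaller share of expressing cells and less RNA per cell cannot be told apart.

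**Figure D1:**
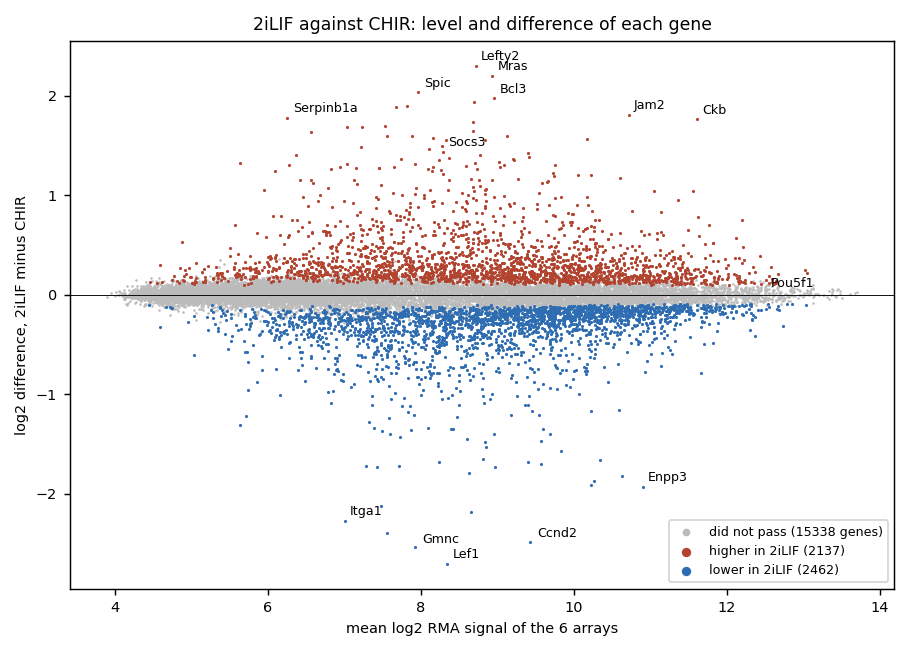
Each point is a gene, with its mean log2 RMA signal over the 6 arrays of 2iLIF and CHIR on the horizontal axis and its log2 difference, 2iLIF minus CHIR, on the vertical axis. Red points (2137 genes) passed as higher in 2iLIF, blue points (2462) as lower, and grey points did not pass. Lefty2 and Lef1, the named genes with the largest difference in each direction, lie at middle levels, and Pou5f1 lies at the right on the zero line.

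Core pluripotency factors were high in both groups and did not pass. Pou5f1 (Oct4) read 12.56, 12.51 and 12.47 on the 2iLIF arrays and 12.50, 12.45 and 12.53 on the CHIR arrays. Sox2, its partner, read 11.54, 11.53 and 11.51 against 11.47, 11.57 and 11.47. Arrays of the groups overlapped for both genes, and the differences were 0.02 ± 0.03 and 0.03 ± 0.04 (SE, limma adjusted p = 0.762 and 0.763). Axin2, the feedback target that reports beta-catenin activity, did not pass either: it read 9.34, 9.36 and 9.38 in 2iLIF and 9.30, 9.37 and 9.25 in CHIR (0.05 ± 0.08, adjusted p = 0.734). Its means were 7.66 in PD03 and 7.86 in DMSO, the groups without CHIR99021. Ctnnb1 itself differed by -0.0024 ± 0.03 (adjusted p = 0.976).

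The genes with the largest excess in 2iLIF were Lefty2, Mras, Spic, Bcl3, Myof and A2m. Lefty2, a secreted antagonist of Nodal, read 9.89, 9.93 and 9.77 in 2iLIF against 7.57, 7.48 and 7.63 in CHIR (4.93-fold higher; 2.30 ± 0.07). Mras, a GTPase of the RAS family, read 10.04, 10.07 and 9.97 against 7.84, 7.85 and 7.80 (4.59-fold; 2.20 ± 0.05), and its other probe set gave 1.65. The ETS factor gene Spic was 4.09-fold higher, Bcl3, an atypical IκB protein and STAT3 target, 3.93-fold, the membrane repair protein gene Myof 3.83-fold and the protease inhibitor gene A2m 3.71-fold. The Ras exchange factor gene Rasgef1a, the junctional adhesion gene Jam2, Serpinb1a, the creatine kinase gene Ckb, the guidance ligand gene Slit2 and the transporter gene Slco4c1 followed at 3.7 to 3.24-fold. The CHIR mean of Serpinb1a was 5.36, near the low end of the scale, where RMA compresses differences, and its fold was 3.43.

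The lowest genes in 2iLIF were Lef1, Gmnc, Ccnd2, Map7d3, Itga1 and Nt5e. Lef1, a TCF/LEF partner of beta-catenin and a gene of the primed epiblast, read 7.03, 7.03 and 6.91 in 2iLIF and 9.77, 9.66 and 9.65 in CHIR, 6.51-fold higher in CHIR (-2.70 ± 0.05). Gmnc, a geminin-related coiled-coil gene known from multiciliated cells, read 6.52, 6.76 and 6.67 against 9.19, 9.16 and 9.22 (-2.54 ± 0.08). Ccnd2, which encodes cyclin D2, read 8.25, 8.01 and 8.29 against 10.79, 10.51 and 10.71 (-2.49 ± 0.11). The 3 arrays of each group lay clear of those of the other group for all of these genes, as the rule for naming them required; of all genes tested, 33.9% had arrays that did not overlap between the groups. The microtubule-associated gene Map7d3 stood at -2.39 ± 0.12, the collagen-binding integrin gene Itga1 at -2.27 ± 0.10, the ecto-nucleotidase gene Nt5e at -2.18 ± 0.08, Vrtn at -2.12 ± 0.09 and the ectoenzyme gene Enpp3 at -1.93 ± 0.04. Peg10, an imprinted gene derived from a retrotransposon, the connexin gene Gja1, Dnmt3l and the forkhead gene Foxi3 closed the 12 at -1.91 to -1.79. The 2iLIF mean of Itga1 was 5.86, likewise near the low end of the scale. Among these 24 genes no adjusted p (limma) was above 4.57e-08.

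The total was split unevenly over its steps, and the split differed from gene to gene. The test of the LIF step against the PD0325901 step passed for 840 genes (4.21%), positive in 244 (1.22%) and negative in 596 (2.99%). With arrays centred on their medians the split was 310 positive and 283 negative. The count was 501, 454 and 520 without 2i replicates 1, 2 and 3, in that order. Bcl3 lay almost wholly in the LIF step (1.83 ± 0.08, against 0.15 ± 0.08 for PD0325901; limma adjusted p of the difference of steps 3.99e-06). Serpinb1a (1.46 and 0.32) and Slit2 (1.32 and 0.41) leaned the same way, with limma adjusted p = 3.02e-04 and 9.91e-04. Lefty2 lay mostly in the PD0325901 step (1.95 ± 0.07, against 0.36 ± 0.07 for LIF, limma adjusted p = 1.41e-06). So did Rasgef1a (1.44 against 0.45), Ckb (1.23 against 0.54), Itga1 (-1.87 against -0.40) and Nt5e (-1.71 against -0.48), with limma adjusted p = 1.92e-06, 4.25e-05, 7.39e-05 and 6.07e-05. Enpp3 and Dnmt3l leaned to LIF, with -1.39 and -1.27 in that step and -0.54 and -0.55 in the other (limma adjusted p = 5.33e-06 and 3.87e-04). The steps of Mras, Jam2, Ccnd2 and Foxi3 did not differ by the test (limma adjusted p = 0.289, 0.478, 0.638 and 0.401). Those of Foxi3 were -0.74 for LIF and -1.05 for PD0325901. For Mras the LIF step minus the PD0325901 step was 0.20 ± 0.09, and it passed with the mean of its probe sets (0.41, adjusted p = 0.0125) and without 2i replicate 3 (adjusted p = 0.0471).

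**Figure D2:**
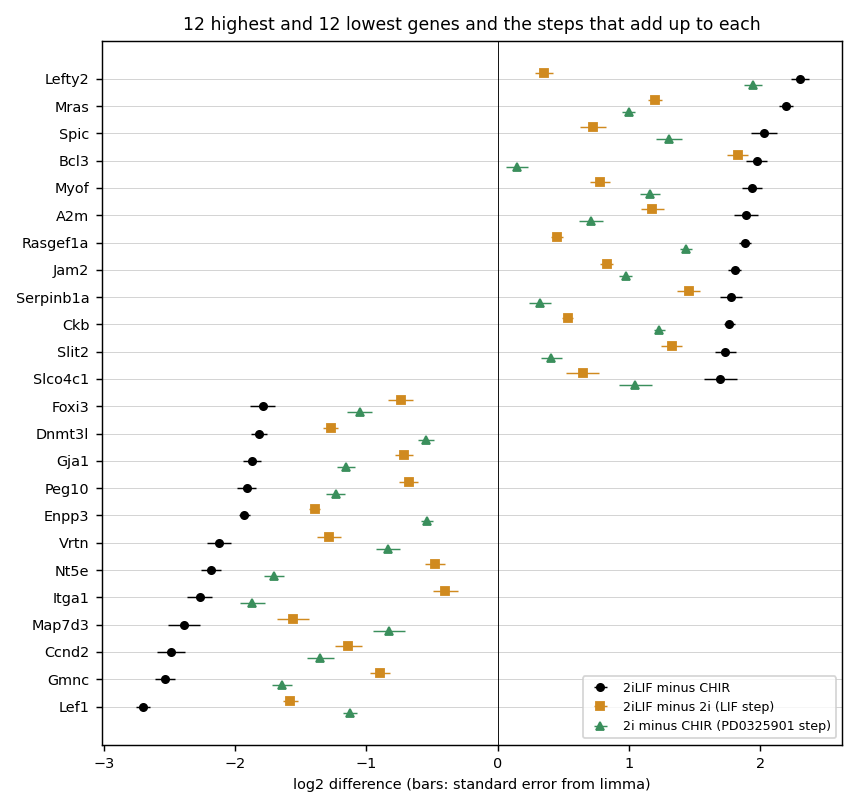
Log2 differences (horizontal axis) of the 12 highest and the 12 lowest genes, with bars for the limma standard error. Black circles are 2iLIF minus CHIR, orange squares the LIF step (2iLIF minus 2i) and green triangles the PD0325901 step (2i minus CHIR). For all 24 genes both steps point the same way as their sum, with Bcl3 nearly all in the LIF step and Itga1 mostly in the PD0325901 step.

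LIF and STAT3 targets were higher in 2iLIF in 14 of 26 measured cases (10.7% of all genes were higher) and lower in 2, Socs2 and Gadd45g, with a median difference of 0.20 (0.01 over all genes). The lower count was 1 without 2iLIF replicate 2 or 3 or CHIR replicate 1 or 3. Of these 26 genes, 4 had means below 6 in both groups. Socs3, the feedback inhibitor of JAK signalling, read 8.92, 9.08 and 9.0 in 2iLIF, 7.55, 7.23 and 7.29 in 2i, and 7.51, 7.52 and 7.65 in CHIR. Only the 2iLIF arrays were high, and the 2i arrays overlapped the CHIR arrays. Its total of 1.43 ± 0.08 was made of a LIF step of 1.64 ± 0.08 and a PD0325901 step of -0.21 ± 0.08, and the steps differed (adjusted p = 1.1e-06). A second probe set of Socs3 gave a total of 0.05, and the values given are those of the set with the higher mean. Bcl3 read 10.03, 9.98 and 9.81 in 2iLIF, 8.11, 8.11 and 8.13 in 2i, and 8.12, 7.81 and 7.99 in CHIR, which is the same pattern. Klf4, a Krüppel-like factor of naive cells that STAT3 induces, read 10.07, 9.85 and 9.82, then 8.42, 8.47 and 8.51, then 8.39, 8.33 and 8.24 in the same order of groups. Its LIF step was 1.45 ± 0.09 and its PD0325901 step 0.15 ± 0.09 (limma adjusted p of the difference 1.42e-04).

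Stat3 itself was 1.76-fold higher in 2iLIF (0.81 ± 0.05), with 0.71 in the LIF step and 0.11 in the other (limma adjusted p of the difference 7.64e-04). The adhesion receptor gene Icam1 was 2.07-fold higher, with steps of 0.80 and 0.25 that differed (limma adjusted p = 0.00355). Of 16 receptor and JAK/STAT genes, Stat3 among them, 5 were higher (Stat3, Il6ra, Il6st, Lifr and Pias3) and 2 were lower (Stat4 and Tyk2), so that 43.8% passed against 23.1% of all genes. The IL-6 receptor gene Il6ra was at 0.52 ± 0.06, Il6st at 0.22 ± 0.05 and Stat4 at -0.45 ± 0.05. The higher count was 3 without 2iLIF replicate 3, CHIR replicate 1 or CHIR replicate 3, and the lower count was 1 without 2iLIF replicate 1 or CHIR replicate 2.

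STAT factors bind the letters TTCNNNGAA, which read the same way on both strands. A search of the 250 bases before each gene's start (RefSeq, GRCm38.p6) found a match for 6 of the 23 LIF and STAT3 targets with a promoter in the table (26.1%), and for 1204 of 15613 measured genes (7.71%). The share was 8.27% among genes higher in 2iLIF, 5.92% among genes lower, and 12 of 73 (16.4%) among those higher by at least 2-fold. The members with a match were Socs3, Sbno2, Icam1, Zfp36, Fgl2 and Irf1, of which all but Fgl2 (0.05 ± 0.04, adjusted p = 0.422) were higher in 2iLIF. Fgl2 had means of 5.13 in 2iLIF and 5.09 in CHIR, near the low end of the scale. These stretches, upstream of 3 genes that were higher in 2iLIF, show the match in capitals, 5′ to 3′ on the strand of the gene. Socs3 lies on the minus strand (chr11:117969486-117969546), Icam1 on the plus strand (chr9:21015872-21015932) and Irf1 on the plus strand (chr11:53769898-53769958).
Socs3: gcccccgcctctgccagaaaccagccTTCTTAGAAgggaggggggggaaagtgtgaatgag
Icam1: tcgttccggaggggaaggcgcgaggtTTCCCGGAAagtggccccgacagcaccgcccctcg
Irf1: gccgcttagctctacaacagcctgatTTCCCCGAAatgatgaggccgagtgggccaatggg
The match begins 154 bases before the start of Socs3, 42 before that of Icam1 and 90 before that of Irf1. Irf1, an interferon regulatory factor chosen here for its match, was at 0.60 ± 0.06. Its LIF step of 0.18 ± 0.06 did not pass (limma adjusted p = 0.0705). Its PD0325901 step of 0.42 ± 0.06 did (limma adjusted p = 3.75e-04), and the steps did not differ by the test (limma adjusted p = 0.314).

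Of 28 genes that respond to ERK or feed back on it, 14 were lower in 2iLIF (12.3% of all genes were lower) and 4 were higher (10.7%), with a median of -0.16. Etv4, an ETS factor of the PEA3 group, read 8.16, 7.99 and 8.15 in 2iLIF, 7.69, 7.72 and 7.97 in 2i, and 9.69, 9.45 and 9.62 in CHIR. Dusp4, a nuclear MAP kinase phosphatase, read 6.98, 7.04 and 7.02, then 7.21, 7.12 and 7.09, then 8.49, 8.51 and 8.32. Dusp6, a phosphatase of ERK, read 9.34, 9.49 and 9.61, then 9.23, 9.33 and 9.32, then 10.41, 10.38 and 10.45. The CHIR arrays were the high ones for all 3 genes. The totals were -1.49 ± 0.08, -1.43 ± 0.06 and -0.93 ± 0.06, and the PD0325901 steps were -1.79 ± 0.08, -1.30 ± 0.06 and -1.12 ± 0.06. Of the 28 genes, 9 passed as higher and 5 as lower in the LIF step (4.56% and 7.66% of all genes). In the PD0325901 step 2 were higher and 11 lower (5.7% and 3.76% of all genes). Spred2, Ccnd1 and Epha2 passed as lower in the LIF step and did not pass in the PD0325901 step.

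Spry4, a Sprouty inhibitor of RAS signalling, had steps in opposite directions. It read 9.11, 9.09 and 8.95 in 2iLIF, 8.16, 8.31 and 8.61 in 2i, and 10.07, 9.90 and 10.02 in CHIR, so the 2i arrays were the lowest. The LIF step was 0.69 ± 0.09 (limma adjusted p = 7.09e-05), the PD0325901 step -1.64 ± 0.09 and the total -0.94 ± 0.09. The steps of Etv4 and Dusp6 also differed from each other (adjusted p = 7.46e-07 and 1.41e-06), with LIF steps of 0.31 ± 0.08 and 0.19 ± 0.06. Among the 4 list members higher in 2iLIF, the clock-linked repressor gene Bhlhe40 stood at 1.55 ± 0.10 (2.93-fold) and the Eph receptor gene Epha4 at 0.98 ± 0.04. Both had the larger part in the LIF step, at 1.16 and 0.73. The steps of Bhlhe40 differed (limma adjusted p = 0.0205), but not without 2i replicate 1 or 2i replicate 3 (adjusted p = 0.111 and 0.137). Among the immediate early genes, Egr1 was lower in 2iLIF (-0.51 ± 0.09, limma adjusted p = 0.00033), with -0.50 in the PD0325901 step. Ier2 was higher (0.20 ± 0.05, limma adjusted p = 0.0044), while Fos, Fosb, Fosl1, Egr2, Egr3 and Junb did not pass. Group means of Fos, Fosb, Fosl1 and Egr2 were low, between 6.12 and 6.48, where a change is hard to detect. The list members Etv5 (-0.02 ± 0.03) and Il17rd (-0.01 ± 0.04) did not pass either.

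Of 17 measured genes of the cascade itself, 2 were higher and 5 lower, so that 41.2% passed against 23.1% of all genes: the FGF receptor gene Fgfr2 stood at -0.61 ± 0.08, the kinase gene Braf at -0.39 ± 0.04, the exchange factor gene Sos2 at -0.31 ± 0.06 and the scaffold gene Ksr1 at 0.23 ± 0.06. The higher count was 1 without 2iLIF replicate 1, and the lower count was 3 without 2iLIF replicate 1, 2iLIF replicate 2 or CHIR replicate 2.

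**Figure D3:**
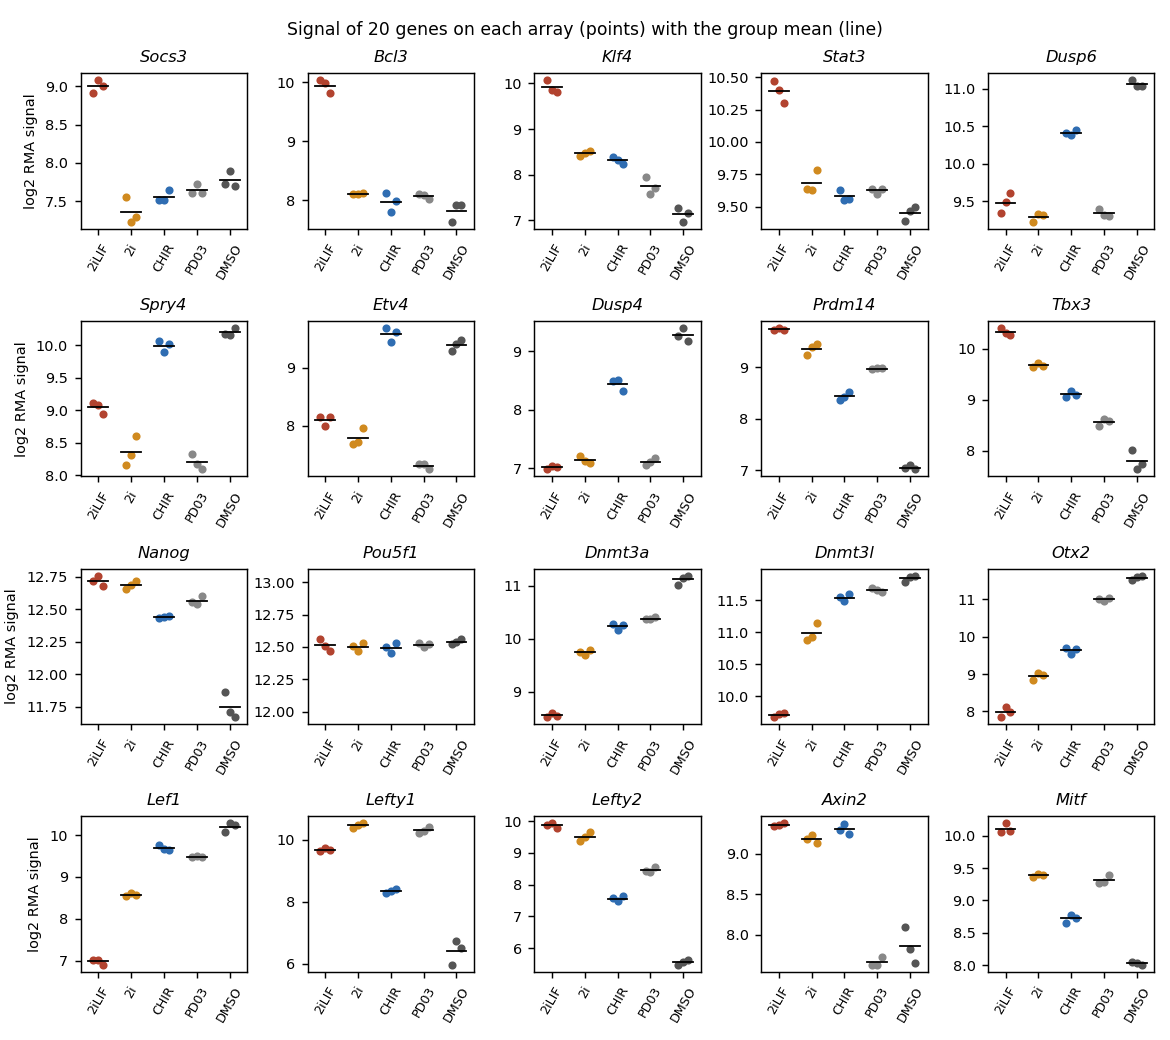
Log2 RMA signal (vertical axis, its range set for each gene) of 20 genes on every array, with groups on the horizontal axis, points for the 3 arrays of a group and a line at their mean. Socs3, Bcl3, Klf4 and Stat3 are high in 2iLIF alone, Dusp6, Spry4, Etv4 and Dusp4 are high in CHIR and DMSO, and Dnmt3a, Dnmt3l, Otx2 and Lef1 climb from 2iLIF over 2i to CHIR.

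Of 19 naive pluripotency genes, 13 were higher in 2iLIF and Nlrp4f alone was lower (10.7% and 12.3% of all genes), with a median of 0.30. The lower count was 2 without 2iLIF replicate 3 or CHIR replicate 1. After Spic and Klf4 the largest differences were in Prdm14, Tbx3, Tcl1 and Tfcp2l1. Prdm14, which represses the de novo methyltransferase genes, read 9.73, 9.76 and 9.73 in 2iLIF, 9.24, 9.39 and 9.45 in 2i, and 8.36, 8.43 and 8.51 in CHIR (2.47-fold; 1.31 ± 0.05). The T-box factor gene Tbx3 read 10.41, 10.32 and 10.28, then 9.64, 9.72 and 9.67, then 9.06, 9.17 and 9.10 (2.34-fold; 1.23 ± 0.07). For both genes the 2i arrays lay between the other groups with no overlap.

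The parts of the steps varied among these factors. Prdm14 leaned to the PD0325901 step (0.92 against 0.38; limma adjusted p of the difference 0.00166), and Klf4 to the LIF step. The steps of Tbx3 (0.66 for LIF and 0.56 for PD0325901) did not differ by the test (0.10 ± 0.13, limma adjusted p = 0.783). Tfcp2l1, a target of STAT3, was at 1.04 ± 0.05 with 0.73 in the LIF step and 0.31 in the other (limma adjusted p of the difference 0.0175). That difference did not pass without 2i replicate 1, 2 or 3 (adjusted p = 0.0613, 0.0905 and 0.0561). Nanog read 12.72, 12.76 and 12.68 in 2iLIF, 12.66, 12.69 and 12.72 in 2i, and 12.43, 12.44 and 12.45 in CHIR. Its total was small (0.28 ± 0.04, 1.21-fold), and the 2iLIF and 2i arrays overlapped. Klf2 and the nuclear receptor gene Esrrb were at 0.41 ± 0.04 and 0.50 ± 0.06. Dppa3, Nr0b1, Sall4, Gbx2 and Nr5a2 did not pass. Gbx2, a STAT3-induced homeobox gene, had steps of 0.47 ± 0.07 for LIF and -0.49 ± 0.07 for PD0325901, which left a total of -0.02 ± 0.07.

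Formative and primed epiblast genes were lower in 2iLIF in 16 of 22 cases (12.3% of all genes were lower), with a median of -0.65. No member was higher with limma, also at an unadjusted p under 0.05. After Lef1 and Dnmt3l the differences were led by the kinase gene Pim2 (-1.70 ± 0.13), Dnmt3a and Dnmt3b. Dnmt3a read 8.52, 8.60 and 8.54 in 2iLIF, 9.74, 9.69 and 9.79 in 2i, and 10.28, 10.17 and 10.26 in CHIR, 3.22-fold higher in CHIR than in 2iLIF. Dnmt3b read 9.48, 9.49 and 9.55, then 10.57, 10.48 and 10.71, then 11.20, 11.11 and 11.20, 3.17-fold higher in CHIR. Dnmt3l, the catalytically inactive cofactor of both enzymes, read 9.68, 9.72 and 9.74, then 10.88, 10.93 and 11.15, then 11.54, 11.48 and 11.59. All 3 genes had the larger step with LIF, at -1.19 ± 0.05, -1.08 ± 0.06 and -1.27 ± 0.06, against -0.50, -0.58 and -0.55 with PD0325901. The difference of the steps had a limma adjusted p of 9.86e-05 for Dnmt3a, 0.00951 for Dnmt3b and 3.87e-04 for Dnmt3l. Without 2i replicate 3 it was 0.0745 for Dnmt3b.

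Otx2, the homeobox factor of the formative epiblast, read 7.85, 8.12 and 7.98 in 2iLIF, 8.84, 9.04 and 8.97 in 2i, and 9.69, 9.55 and 9.68 in CHIR (-1.66 ± 0.06). Its DMSO mean of 11.58 lay above the CHIR mean of 9.64. The growth factor gene Fgf5 read 7.12, 7.13 and 7.10 in 2iLIF against 7.84, 7.57 and 7.74 in CHIR (-0.60 ± 0.14, adjusted p = 0.004). Pou3f1, Sox3, Fgf15, Fgf8, Sall2 and Foxd3 did not pass.

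In the wider list of DNA methylation machinery 6 of 11 members were lower in 2iLIF and 3 were higher (Prdm14, Tet2 and Uhrf1), beside 12.3% and 10.7% of all genes. Beside the Dnmt3 genes, Uhrf2, a paralogue of the maintenance factor Uhrf1, was at -1.10 ± 0.07, a gene named here after its value was seen. The maintenance enzyme gene Dnmt1 and Tet1 did not pass. Germ line genes, many of which are held silent by promoter methylation, were lower in 6 of 17 cases (12.3% of all genes), and no member was higher, also at an unadjusted p under 0.05 (limma). Mael, a piRNA pathway gene, stood at -1.09 ± 0.10, its partner in that pathway Piwil2 at -0.53 ± 0.05, the helicase gene Ddx4 at -0.42 ± 0.08 and Stk31 at -0.42 ± 0.08. Of these 17 genes, 5 had means below 6 in both groups. Of 16 general pluripotency genes, 7 were lower and Tdgf1 was higher (12.3% and 10.7% of all genes), with the RNA-binding protein gene Lin28a at -0.77 ± 0.06, Utf1 at -0.49 ± 0.04 and Dppa2 at -0.36 ± 0.04.

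**Figure D4:**
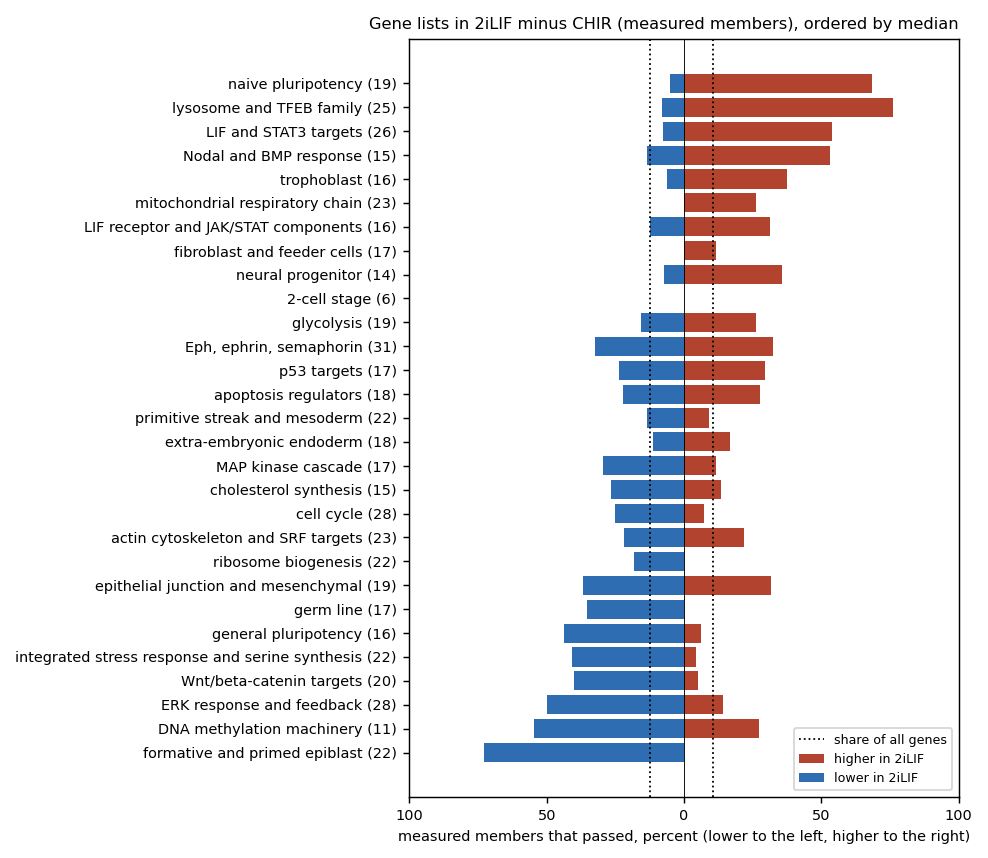
Share of the measured members of each list (number in brackets) that passed as higher (red, to the right) or lower (blue, to the left) in 2iLIF minus CHIR, in percent. Dotted lines mark the shares of all genes, 10.7% higher and 12.3% lower. Lists are ordered by their median difference, from formative and primed epiblast genes (-0.65) at the bottom to naive pluripotency genes (0.30) at the top.

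The lysosome list, which holds lysosomal hydrolases, membrane proteins and the transcription factors of the TFEB family, was higher in 2iLIF in 19 of 25 cases and lower in 2, Tfe3 and Ctsz, with a median of 0.28. These shares stand beside 10.7% and 12.3% of all genes, and the lower count was 1 without 2iLIF replicate 1 or CHIR replicate 3. Mitf, a bHLH factor that binds the same E-box element as TFEB, read 10.05, 10.19 and 10.07 in 2iLIF, 9.36, 9.41 and 9.39 in 2i, and 8.66, 8.78 and 8.73 in CHIR (2.61-fold; 1.38 ± 0.05). The groups did not overlap, and the DMSO mean was lower again at 8.03. The other probe set of Mitf gave 0.42. Tfeb was at 0.52 ± 0.05 and its paralogue Tfe3 at -0.36 ± 0.05, both named after their values were seen.

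Among the lysosomal proteins, the progranulin gene Grn was at 0.61 ± 0.05, the acid alpha-glucosidase gene Gaa at 0.61 ± 0.05, the hexosaminidase subunit gene Hexa at 0.58 ± 0.06, the beta-galactosidase gene Glb1 at 0.56 ± 0.05 and the protease gene Ctsd (cathepsin D) at 0.44 ± 0.04. Grn read 11.33, 11.30 and 11.21 in 2iLIF, 10.98, 10.96 and 10.95 in 2i, and 10.73, 10.67 and 10.61 in CHIR. Its steps were nearly equal, at 0.32 for LIF and 0.29 for PD0325901 (difference 0.03 ± 0.08, adjusted p = 0.916). The steps of Mitf (0.72 and 0.66) and of Gaa (0.31 and 0.30) did not differ by the test either (0.05 ± 0.08 and 0.01 ± 0.09). Flcn, Atp6v0d2, Ctsl and Mcoln1 did not pass.

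**Figure D5:**
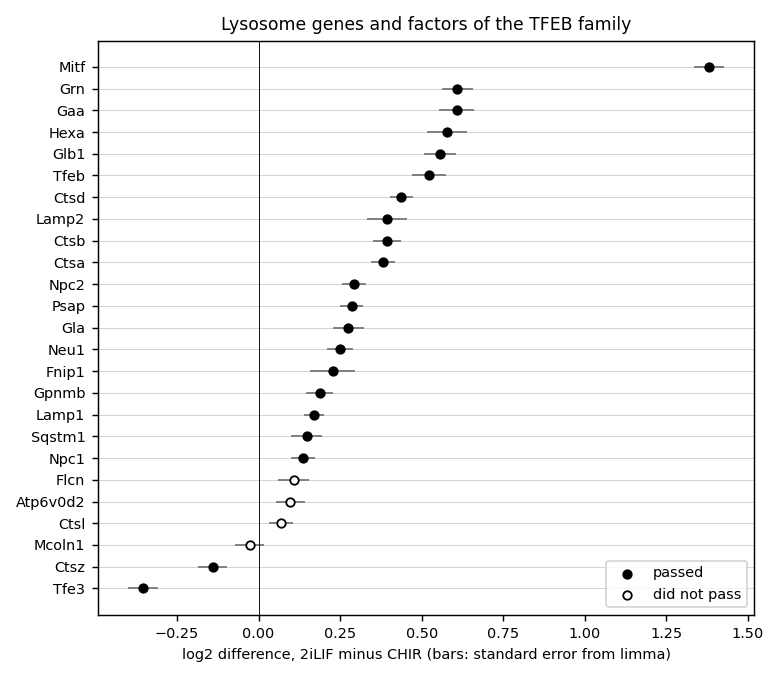
Log2 difference, 2iLIF minus CHIR (horizontal axis), of the 25 measured lysosome and TFEB family genes, with bars for the limma standard error. Filled points passed and open points did not. Mitf stands at 1.38, 18 others passed between 0.14 and 0.61, and Ctsz and Tfe3 passed below zero.

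Factors of the TFEB family bind an E-box within a longer element whose core was searched here as GTCACGTG on either strand. A match lay in the 250 bases before the start of 6 of 22 lysosome list members with a promoter in the table (27.3%), against 449 of 15613 measured genes (2.88%). The share was 4.23% among all genes higher in 2iLIF and 3.34% among those lower, and none of the 73 genes higher by at least 2-fold held a match (0 of 73). The members with a match were Lamp1, Ctsa, Ctsd, Gla, Glb1 and Mcoln1, of which all but Mcoln1 (-0.03 ± 0.04, adjusted p = 0.745) were higher. Stretches of 4 of them that were higher in 2iLIF (for Ctsd the nearer of its matches), with the match in capitals on the strand of the gene, came from chr7:142387892-142387951 (Ctsd, minus), chr2:164833733-164833772 (Ctsa, plus), chrX:134601168-134601227 (Gla, minus) and chr9:114401002-114401061 (Glb1, plus) of GRCm38.p6.
Ctsd: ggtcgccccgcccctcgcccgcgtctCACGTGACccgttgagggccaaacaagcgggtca
Ctsa: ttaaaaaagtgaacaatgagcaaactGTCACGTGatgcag
Gla: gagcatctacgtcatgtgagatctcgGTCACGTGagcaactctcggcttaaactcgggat
Glb1: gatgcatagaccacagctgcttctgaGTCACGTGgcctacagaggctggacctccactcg
Matches began 98, 14, 196 and 50 bases before these starts. Ctsa and Gla, named for their match, stood at 0.38 ± 0.04 and 0.28 ± 0.05.

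Both groups had CHIR99021 at the same dose. Of 20 Wnt/beta-catenin targets, 8 were lower in 2iLIF and 1 was higher (12.3% and 10.7% of all genes), with a median of -0.14. The higher count was 2 without CHIR replicate 1. Tnfrsf19, a receptor of the TNF family, read 7.82, 7.87 and 7.87 in 2iLIF, 8.72, 8.61 and 8.55 in 2i, and 9.13, 9.06 and 9.06 in CHIR (-1.23 ± 0.04). The Wnt receptor gene Fzd7 stood at -0.94 ± 0.06, and Sp8 at -0.43 ± 0.06 with a 2iLIF mean of 5.94. Lef1, the lowest of the 8, and Fzd7 had higher means in DMSO, without CHIR99021 (10.19 and 10.79), than in CHIR (9.69 and 10.16). Notum, which encodes a secreted Wnt-inactivating enzyme, was the member higher in 2iLIF (0.68 ± 0.06), with 0.60 in the PD0325901 step and 0.09 in the LIF step. The targets Axin2, Sp5, Cdx1, Lgr5 and Rnf43 did not pass. Sp5 had opposite steps, 0.45 ± 0.07 for LIF and -0.29 ± 0.07 for PD0325901 (limma adjusted p = 3.82e-04 and 0.0156).

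Of 15 genes that respond to Nodal or BMP, 8 were higher and Skil and Id3 were lower (10.7% and 12.3% of all genes), with a median of 0.16. Lefty1, a Nodal antagonist next to Lefty2 in the genome, moved in opposite directions in the steps. It read 9.63, 9.75 and 9.69 in 2iLIF, 10.40, 10.48 and 10.54 in 2i, and 8.30, 8.35 and 8.43 in CHIR, so the 2i arrays were the highest. Its LIF step was -0.78 ± 0.13, its PD0325901 step 2.11 ± 0.13 and its total 1.33 ± 0.13 (limma adjusted p of the difference of steps 1.85e-06). Lefty2 rose in both steps, at 0.36 ± 0.07 and 1.95 ± 0.07. The BMP-regulated gene Id4 was at 0.64 ± 0.08, and Skil, a SMAD corepressor, at -0.59 ± 0.05.

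Opposing steps left some genes with no difference in the total. Cdhr1, a cadherin-related gene, read 7.29, 7.17 and 7.15 in 2iLIF and 7.21, 7.34 and 7.14 in CHIR, but 7.99, 8.06 and 8.01 in 2i. The sulfotransferase gene Chst15 read 6.74, 6.81 and 6.73 in 2iLIF and 6.78, 6.72 and 6.72 in CHIR, but 7.33, 7.42 and 7.42 in 2i. Cd109, a membrane protein that binds TGF-beta, read 6.16, 6.01 and 6.15, then 6.15, 6.03 and 6.12, but 6.68, 6.77 and 6.74 in 2i. For these 3 genes the outer groups overlapped and the 2i arrays stood above both. Their LIF steps were -0.82 ± 0.07, -0.63 ± 0.05 and -0.62 ± 0.05, and their PD0325901 steps 0.79 ± 0.07, 0.65 ± 0.05 and 0.63 ± 0.05. Cdh3 (P-cadherin) had a LIF step of -1.04 ± 0.04 and a PD0325901 step of 0.53 ± 0.04, with a total of -0.51 ± 0.04. These genes were named by a rule that picks opposing steps.

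Cell cycle genes passed in 9 of 28 cases (32.1% against 23.1% of all genes), 2 higher and 7 lower beside 10.7% and 12.3% of all genes, and the D cyclins did not move together. Beside Ccnd2, Ccnd1 stood at -0.40 ± 0.06, Ccnd3 at 0.36 ± 0.04 and the partner kinase gene Cdk6 at -0.34 ± 0.04. The lower count was 4 without CHIR replicate 1. Of 18 apoptosis regulators 5 were higher and 4 lower (10.7% and 12.3% of all genes), the latter with the BH3-only genes Pmaip1 (Noxa) at -1.11 ± 0.08 and Bcl2l11 (Bim) at -0.74 ± 0.06. The higher count was 2 without CHIR replicate 2, and the lower count was 2 without 2iLIF replicate 3 or CHIR replicate 3. Of 17 p53 targets 5 were higher and 4 lower, with the antiproliferative gene Btg2 at 0.88 ± 0.05 and Perp at 0.83 ± 0.07. Beside the 23.1% of all genes, 52.9% of the p53 targets passed, in both directions.

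The integrated stress response and serine synthesis list had 9 lower members and 1 higher of 22 (12.3% and 10.7% of all genes), with a median of -0.09. The cystine transporter gene Slc7a11 stood at -0.77 ± 0.06, of which -0.61 lay in the LIF step, Ddit4 at -0.42 ± 0.05 and Chac1, a glutathione-degrading enzyme gene, at -0.37 ± 0.06. Ddit3 (CHOP) was the higher member at 0.38 ± 0.07, and Atf4, Trib3 and Asns did not pass. Of 23 nuclear genes of the respiratory chain 6 were higher with limma and 0 lower, also 0 at an unadjusted p under 0.05. The 26.1% that passed, all as higher, stood beside 10.7% of all genes that were higher and 23.1% that passed. The succinate dehydrogenase gene Sdhb was at 0.37 ± 0.04 and Ndufa4 at 0.28 ± 0.06. Of 19 glycolysis genes 5 were higher and 3 lower (42.1% passed against the same 23.1%), with Aldoc at 0.52 ± 0.06 and the phosphofructokinase gene Pfkm at -0.54 ± 0.05. The higher count of glycolysis genes was 3 without 2iLIF replicate 1, 2iLIF replicate 2 or CHIR replicate 2. Of 15 cholesterol synthesis genes 2 were higher and 4 lower, within 0.35 in size (beside 10.7% and 12.3% of all genes), led by Lss at -0.35 ± 0.06 and Sqle at -0.29 ± 0.04. Their higher count was 1 without 2iLIF replicate 3, CHIR replicate 1 or CHIR replicate 2, and their lower count was 2 without CHIR replicate 3.

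Ribosome biogenesis genes showed 4 lower and no higher member of 22 with limma (9 and 0 at an unadjusted p under 0.05). The 18.2% that passed, all as lower, stood beside 12.3% of all genes that were lower and 23.1% that passed. The calls were small, from -0.18 to -0.10, and the lower count fell to 1 or 2 without each of 2iLIF replicates 1, 2 and 3 and CHIR replicates 1 and 3.

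Surface and cytoskeletal genes moved in both directions. Of the Eph, ephrin and semaphorin list 64.5% passed, of the actin and SRF list 43.5% and of the epithelial and mesenchymal list 68.4%, beside 23.1% of all genes. Of 31 genes of the Eph, ephrin and semaphorin families 10 were higher and 10 lower. Epha1 read 7.39, 7.40 and 7.46 in 2iLIF against 8.78, 8.69 and 8.81 in CHIR (-1.34 ± 0.08), with the PD0325901 step at -1.41 ± 0.08 and the LIF step at 0.06 ± 0.08. The ephrin gene Efnb2 was at -1.24 ± 0.09, mostly in the LIF step (-1.0 ± 0.09), and Efna3 at 1.17 ± 0.04, with 0.98 in the LIF step. The higher count was 6 without CHIR replicate 3. Of 23 actin and SRF target genes 5 were higher and 5 lower: the annexin gene Anxa2 stood at 1.26 ± 0.12, nearly all in the PD0325901 step (1.18 ± 0.12), the focal adhesion gene Zyx at -0.87 ± 0.05 and Srf itself at -0.37 ± 0.04. Epithelial and mesenchymal genes were higher in 6 and lower in 7 of 19 cases, with the splicing factor gene Esrp1 at -0.95 ± 0.04, Epcam at -0.50 ± 0.04 and the tight junction gene Cldn7 at 0.67 ± 0.05.

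Markers of other cell types passed in part. Of the trophoblast list 43.8% passed, of the neural list 42.9% and of the extra-embryonic endoderm list 27.8%, beside 23.1% of all genes. Of 16 trophoblast genes 6 were higher in 2iLIF and 1 lower, with Tfap2c (AP2 gamma) at 1.47 ± 0.08, the keratin gene Krt8 at 1.30 ± 0.07, Eomes at 0.99 ± 0.10 and Tead4 at 0.70 ± 0.04. Cdh3 was the lower member (-0.51 ± 0.04), and the trophoblast factor genes Cdx2 (-0.17 ± 0.07), Elf5 (-0.01 ± 0.04) and Hand1 did not pass. The lower count was 2 without CHIR replicate 2. The summed linear signal of that list was 7161 to 7316 on the 2iLIF arrays and 4684 to 4892 on the CHIR arrays. Members with high signal weigh most in such a sum. Of 14 neural progenitor genes 5 were higher and 1 lower, led by the adhesion gene Ncam1 (0.92 ± 0.04), the tubulin gene Tubb3 (0.63 ± 0.07) and Nes (0.48 ± 0.07), with PD0325901 steps of 0.97, 0.61 and 0.45, while Pax6 was at -0.50 ± 0.05. Of 18 extra-embryonic endoderm genes 3 were higher and 2 lower, with the laminin gene Lama1 at 1.57 ± 0.05 and the endocytic receptor gene Lrp2 at -1.73 ± 0.05. Of 22 primitive streak and mesoderm genes 2 were higher and 3 lower, and the 22.7% that passed lay near the 23.1% of all genes.

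Of 17 fibroblast and feeder genes Fn1 (0.18 ± 0.04) and Vim (0.15 ± 0.03) were higher, and none was lower with limma (1 at an unadjusted p under 0.05). The 11.8% of the list that passed, all as higher, lay near the 10.7% of all genes that were higher. The summed linear signal of that list was 12188 to 12861 in 2iLIF and 11270 to 11395 in CHIR, and 6 of its members had means below 6 in both groups. The part of other cell types in these results was not tested. None of 6 genes of the 2-cell stage passed with limma, beside 23.1% of all genes. At an unadjusted p under 0.05 (limma) 1 of them did, as higher in 2iLIF. Of these 6 genes, 4 had means below 6 in both groups, where RMA compresses differences. Without 2iLIF replicate 1 the count that passed was 1.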

How the data were processed

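Total RNA of 15 samples was labelled with an Affymetrix whole-transcript kit, per the labels' protocols. The deposited values are log2 signals per probe set, made by the authors with RMA per the submitters' processing notes. RMA gives the arrays like distributions, which hides a shift common to most genes, and compresses differences of weak genes.

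Of 34760 probe sets, 21640 had 1 gene symbol in the platform annotation, 1321 had several and 11799 had none listed. For 954 genes with several sets the set with the highest mean over 15 arrays was kept, leaving 19937 genes. Limma 3.58.1 in R 4.3.3 (lmFit, eBayes) fitted 5 group means to all 15 arrays, with 10 residual and 5.09 prior degrees of freedom. The median SE of a difference was 0.0509. The fit was tested on simulated data.

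The members and the 29 gene lists (563 of 607 entries measured) were chosen with earlier results of these data known, and lists were counted, not tested. Named genes were the 12 highest and 12 lowest that passed without overlap of arrays (predicted genes left out), up to 4 members a list by size, a short list, and 6 by opposing steps; the text leaves some out. Other genes with values were chosen after these were seen. Alternatives were fewer groups in the fit, a filter on low values (mean of at least 6), the mean of a gene's probe sets, trend and robust settings, median centring, a replicate block, and leaving out each array.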

Additional observations from a re-analysis of the deposited data

How the results depend on the processing

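The count of genes that passed in 2iLIF minus CHIR (4599) stayed within 1.5 times under every alternative run, from 3949 without CHIR replicate 2 to 4843 with the trend and robust settings. Among the comparisons, only the test of the LIF step against the PD0325901 step (840 genes) moved further. It fell to 454, 501 and 520 without 2i replicates 2, 1 and 3, in that order. Leaving out 1 array of 2iLIF or CHIR gave 629 to 788, within 1.5 times. The 2i arrays enter both steps of this test, and the cause of the drop was not tested. Deviations of same-numbered 2iLIF and CHIR arrays from their group means correlated at 0.278, 0.187 and -0.0324. Those of arrays with different numbers correlated at -0.304 to 0.184. Deviations from a mean of 3 arrays cancel within a group, so these values cannot settle whether replicate numbers pair the samples. With the replicate block 4463 genes passed in the total and 719 in the test of the steps. Of 134 named genes 127 passed in the total, which the naming rules required of most of them. Of these 127, 120 passed under every alternative in which they were tested. The filter on low values left out Serpinb1a. The calls of Bok, Ksr1, Mesp2, Mvd, Mybbp1a, Rrp12 and Utp20 were lost under some. Precision is limited by 3 arrays a group.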
